A study of Mus musculus with 2 samples.

Results

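Hyperpolarization-activated cyclic nucleotide-gated (HCN) channels were described here through 4 genes, found by symbol: the channel subunit genes Hcn2, Hcn3 and Hcn4, and Pex5l, which encodes the auxiliary subunit TRIP8b and no channel. They are 4 of the 53055 genes shared by both tables, and 19 of the 140992 transcripts of the posterior table. Bulk RNA sequencing of polyadenylated RNA gave 1 library from brain tissue matched in position to posterior MERFISH slices and 1 library from tissue matched to anterior slices. MERFISH images single RNA molecules in tissue sections. Both samples were from wild type (WT) C57BL/6J male mice, 14 weeks old, with no treatment or transgene given in the labels, which do not say how many mice each sample holds. The libraries held 147138183 estimated posterior and 43558839 anterior fragments. Tissue position, library and processing pipeline differed together and cannot be told apart. Neuronal genes were abundant in both, such as Snap25 of the synapse with an FPKM of 965 in posterior and 533 in anterior tissue. These 2 values do not give a direction. As a share of the fragments in protein-coding genes, Snap25 in posterior tissue was at 0.585 of its anterior share. The subunit balance covers these 3 subunit genes, and no other HCN gene was analysed here.

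HCN channels open when the membrane becomes more negative and pass the inward current Ih, which sets resting potential, dendritic integration and rhythmic firing. Cyclic AMP binds their cytoplasmic end and eases opening, strongly in HCN2 and HCN4 and little in HCN3. TRIP8b binds the end of the channel and changes its trafficking and its response to cyclic AMP. In rodent brain HCN2 and HCN4 are known from thalamic relay neurons, and HCN4 also from the pacemaker cells of the heart.

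The subunit genes are paralogs, so their sequences were compared first, to see how far a fragment could be shared between them. In the leading transcripts Hcn2-202, Hcn3-201 and Hcn4-201, each of 8 exons, exons 3 to 7 had the same lengths in the 3 genes (162, 219, 147, 241 and 165 bases). Over those 934 bases Hcn2 and Hcn4 were identical at 83.4%, Hcn4 and Hcn3 at 81.8%, and Hcn2 and Hcn3 at 78.9% of the bases. Exon 5, of 147 bases, is an example, with the 113 bases that are the same in all 3 genes in capitals. It lies at chr10:79730847-79730993 (+ strand) in Hcn2, at chr3:89150355-89150501 (- strand) in Hcn3 and at chr9:58857717-58857863 (+ strand) in Hcn4, on GRCm38, all in coding sequence.
Hcn2 exon: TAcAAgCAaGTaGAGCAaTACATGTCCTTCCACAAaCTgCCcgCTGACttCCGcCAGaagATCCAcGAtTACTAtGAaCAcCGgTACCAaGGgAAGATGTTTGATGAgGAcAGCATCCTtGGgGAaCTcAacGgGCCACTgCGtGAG
Hcn3 exon: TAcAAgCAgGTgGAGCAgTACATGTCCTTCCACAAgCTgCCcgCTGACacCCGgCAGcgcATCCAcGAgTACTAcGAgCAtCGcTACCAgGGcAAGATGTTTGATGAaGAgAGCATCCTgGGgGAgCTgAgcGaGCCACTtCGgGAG
Hcn4 exon: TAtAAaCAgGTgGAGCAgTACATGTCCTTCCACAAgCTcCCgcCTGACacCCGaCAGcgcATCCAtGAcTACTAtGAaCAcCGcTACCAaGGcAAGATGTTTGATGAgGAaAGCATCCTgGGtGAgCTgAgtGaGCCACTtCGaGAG
The differing bases were spread along the exon, so runs of identity were short. Of the 31-base words of these genes, 5 of 3190 in Hcn2, 5 of 4180 in Hcn3 and 4 of 6088 in Hcn4 occurred in another of the 3. No word of Hcn2 or Hcn4 occurred in a transcript of a gene outside the 4. In Hcn3, 16.3% of the words lay in 1 other gene and 17.1% of the exonic bases lay under exons of Pklr, the liver pyruvate kinase gene on the opposite strand. Pklr held 17 posterior and 2 anterior fragments, and whether the anterior counting used strand is not known, so reads of that stretch cannot be told apart there. In Pex5l 2.92% of the words and 4.11% of the exonic bases were shared with other genes.

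Hcn2 was the most abundant of the 3 subunit genes in both libraries, while Hcn4 was the lowest by FPKM. Levels are FPKM (fragments scaled to 1 kb of length and to the library total), with 95% exact Poisson intervals that cover counting error only, since fragments are not independent molecules and each position had 1 library. Hcn2 (chromosome 10, 79716634 to 79736108, + strand) had an FPKM of 61.6 (60.8 to 62.3) in posterior and 55.95 (54.6 to 57.3) in anterior tissue. It ranked 1296 and 885 by FPKM among the 13339 protein-coding genes compared, which reached an FPKM of 1 in at least 1 library.
Pex5l (chromosome 3, 32949408 to 33143247, - strand) had 89.1 (88.2 to 90.1) in posterior and 26.7 (26.2 to 27.3) in anterior tissue, at ranks 828 and 2112. Its order against Hcn2 by FPKM differed between the libraries but rested on the lengths used: over 1 common gene length Pex5l stood at 0.469 of Hcn2 in posterior tissue, beside 0.478 in anterior tissue.
Hcn3 (chromosome 3, 89146074 to 89160196, - strand) had 6.13 (5.88 to 6.38) in posterior and 5.05 (4.70 to 5.42) in anterior tissue, with 30.3% and 40.7% of the compared genes below it. Hcn4 (chromosome 9, 58823412 to 58863175, + strand) had 3.99 (3.85 to 4.12) in posterior and 1.19 (1.05 to 1.34) in anterior tissue. In each library the order by FPKM among the subunit genes was Hcn2, Hcn3, Hcn4, and no neighbours in that order had overlapping counting intervals. The posterior order of Hcn3 and Hcn4 rested on the lengths used. Hcn4 held more posterior fragments (3421 against 2339), and over 1 common gene length it stood at 0.993 of Hcn3.

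**Figure D1:**
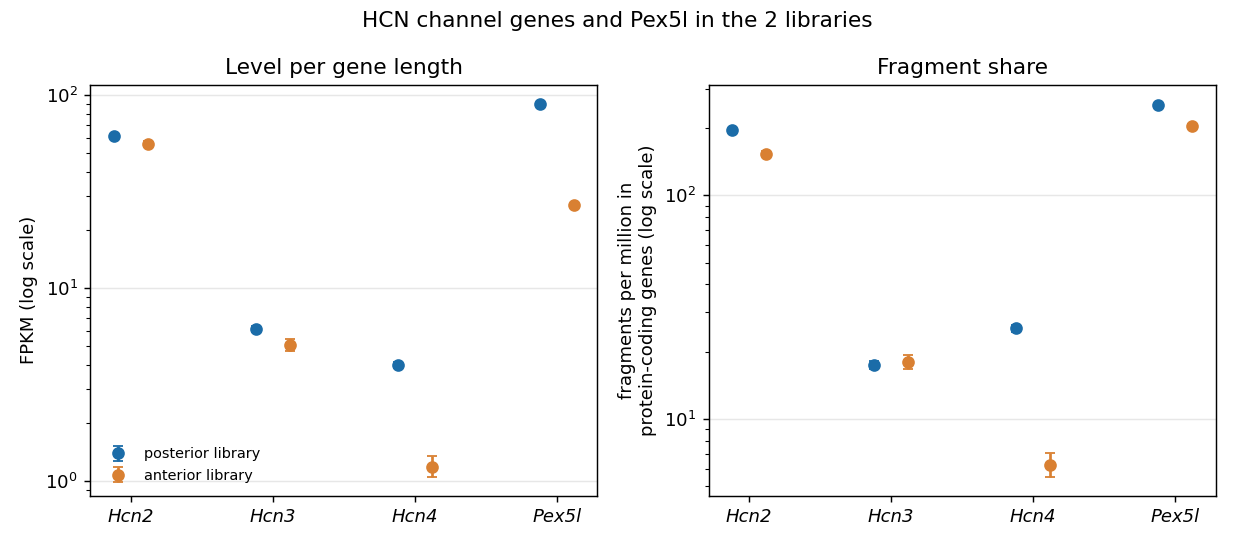
Levels of Hcn2, Hcn3, Hcn4 and Pex5l in the posterior (blue) and anterior (orange) library, as FPKM on the left and as fragments per 1000000 fragments of protein-coding genes (FPM) on the right, both on log axes. Points are the values of 1 library each and bars are 95% Poisson intervals of the fragments; Hcn4 has the widest gap between libraries on the right, 25.4 in posterior and 6.24 in anterior tissue.

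The FPKM of the 2 libraries were not made with the same length. The authors divided anterior fragments by the length of all exons of a gene, while posterior values rest on the effective length of each transcript. For Hcn2 and Hcn4 these lengths differed by a factor of 1.10 and 1.05, for Hcn3 by 1.60 and for Pex5l by 3.39 (8846 bases against a mean effective length of 2608), beside a median of 1.87 over 13310 compared genes. Both an FPKM scale and a scale without lengths are therefore given.
The FPKM difference is the log2 ratio, posterior over anterior, after 0.5 was added to each FPKM as a pseudocount, minus its median over the compared genes, which was 0.63. The fragment share difference is built alike from fragments per 1000000 fragments of protein-coding genes (FPM), with no length and a median of 0.0030. A gene is called posterior-high where it stood at least 2-fold above the median gene and anterior-high where it stood at least 2-fold below it, with no test, since there were no replicates. A pseudocount understates the change of low genes such as Hcn4.

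Hcn4 was higher in the posterior library by 1.94 on the log2 fragment share scale, past 2-fold. It held 3421 posterior and 265 anterior fragments, or 25.4 and 6.24 FPM, a posterior-to-anterior ratio of 4.07 (95% exact interval 3.59 to 4.63). Of the compared genes 3.72% had a higher difference on that scale, while 8.19% were posterior-high and 1.84% anterior-high. On the FPKM scale Hcn4 differed by 0.78, short of 2-fold, with 19.8% of genes higher, and there 14.5% of genes were posterior-high and 7.11% anterior-high. In bulk tissue fewer cells of a type and less RNA per cell cannot be told apart.

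Hcn2 held 26337 posterior and 6529 anterior fragments, or 196 and 154 FPM, a ratio of 1.27 (1.24 to 1.31). Its direction depended on the scale, with a difference of 0.34 by fragment share and of -0.49 by FPKM, both within 2-fold.
Hcn3 held 2339 posterior and 766 anterior fragments, or 17.4 and 18.0 FPM, a ratio of 0.964 (0.888 to 1.05). The counting interval of this Hcn3 ratio included 1, and 1 library per position allowed no test. The Hcn3 difference was -0.055 by fragment share and -0.37 by centred FPKM.
Pex5l held 34204 posterior and 8633 anterior fragments, or 254 and 203 FPM, a ratio of 1.25 (1.22 to 1.28). Its FPKM difference of 1.09 passed 2-fold, while its fragment share difference of 0.32 did not. Among the 4 genes, Pex5l alone was past 2-fold by FPKM and Hcn4 alone by fragment share.

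**Figure D2:**
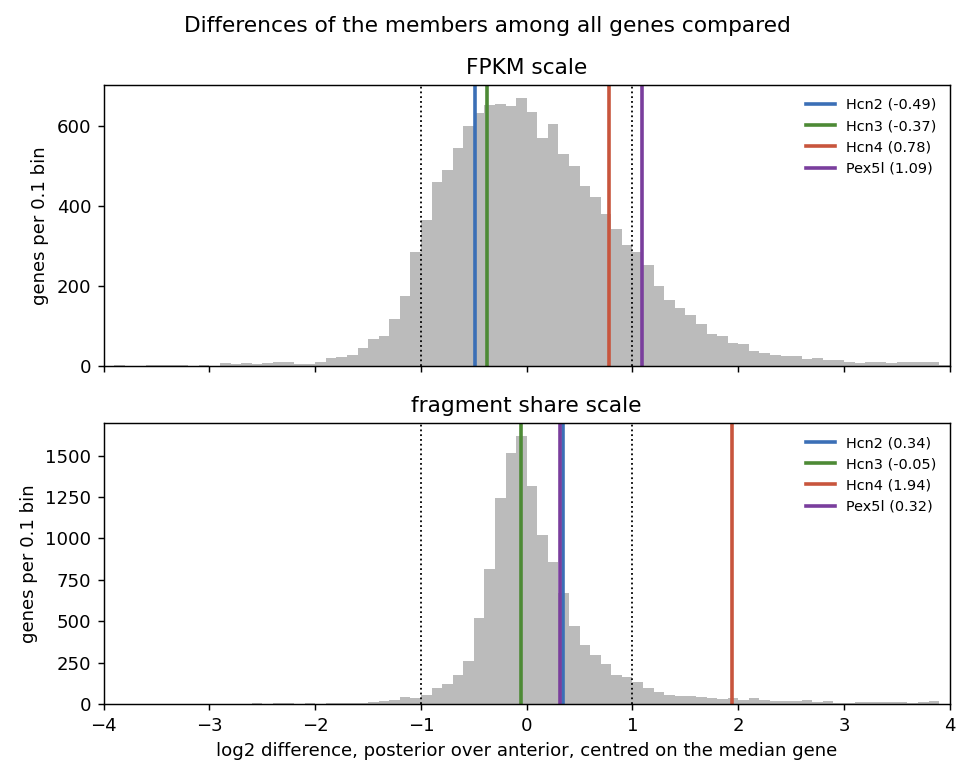
Histograms of the log2 difference, posterior over anterior, of the 13339 compared genes (grey, number of genes per bin) on the FPKM scale above and the fragment share scale below, with coloured lines at the members, dotted lines at 2-fold and the axis ended at 4 on either side. Hcn4 stands at 0.78 and 1.94, Pex5l at 1.09 and 0.32, Hcn2 at -0.49 and 0.34, and Hcn3 at -0.37 and -0.055.

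Ratios between members within a library need no library total. The summed FPKM of the 3 subunit genes was 71.7 in posterior and 62.2 in anterior tissue. Hcn2 made up 85.9% of that sum in posterior and 90.0% in anterior tissue, Hcn3 8.55% and 8.12%, and Hcn4 5.56% and 1.91%. In fragments Hcn4 made up 10.7% (exact binomial interval 10.3 to 11.0) of 32097 in posterior and 3.51% (3.10 to 3.94) of 7560 in anterior tissue. Hcn2 made up 82.1% (81.6 to 82.5) and 86.4% (85.6 to 87.1), and Hcn3 7.29% (7.01 to 7.58) and 10.1% (9.46 to 10.8). Percentages of fragments also carry the lengths of the genes, so they serve to compare the libraries and not the genes.

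The Hcn4-to-Hcn2 ratio of fragments was 0.130 in posterior and 0.0406 in anterior tissue, 3.20 times as high in the posterior (95% exact conditional interval 2.81 to 3.65), and by FPKM it was 3.06 times as high. The Hcn4-to-Hcn3 ratio of fragments was 1.46 in posterior and 0.346 in anterior tissue, 4.23 times as high (3.63 to 4.93). By FPKM it was 0.651 and 0.235, or 2.77 times as high. The Hcn3-to-Hcn2 ratio was 0.0888 in posterior and 0.117 in anterior tissue, or 0.757 of it (0.694 to 0.826), but by FPKM 1.10 times as high, so its direction depended on the length used. With posterior fragments divided by the same gene length as anterior ones, Hcn3 made up 6.01% and Hcn4 5.97% of the posterior sum, beside 8.12% and 1.91% of the anterior sum, so that Hcn3 and Hcn4 were close to equal per length in posterior tissue. The Pex5l-to-Hcn2 ratio was 1.30 in posterior and 1.32 in anterior tissue by fragments, 0.982 times as high (0.947 to 1.02). That counting interval included 1, and 1 library per position allowed no test of a difference. By FPKM the Pex5l-to-Hcn2 ratio was 1.45 in posterior and 0.478 in anterior tissue, and with the common gene length it was 0.469 in posterior tissue.

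**Figure D3:**
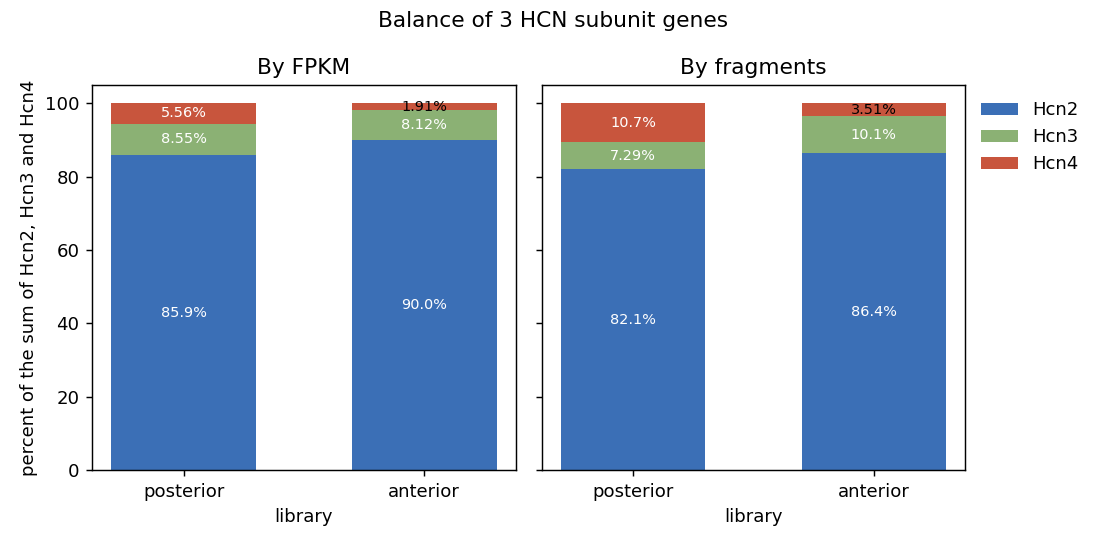
Percent of the summed level of Hcn2, Hcn3 and Hcn4 held by each gene, for the posterior and the anterior library, by FPKM on the left and by fragments on the right. The Hcn4 part is larger in the posterior library on both, 5.56% against 1.91% by FPKM and 10.7% against 3.51% by fragments.

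Only the posterior table is per transcript, and it gave each member its own pattern. Hcn2 was assigned in full to Hcn2-202, with 26337 fragments, and its other annotated transcript, Hcn2-201, which has the same coding exons and 1 more intron in its 3′ untranslated part, was at 0. Hcn4 has 1 annotated transcript, Hcn4-201 of 6118 bases.
Hcn3 has 4. The protein-coding Hcn3-201 took 65.3% of the gene's FPKM, the retained-intron transcripts Hcn3-203 and Hcn3-202 took 22.1% and 10.04%, and the remaining one took 2.63%. The retained-intron transcripts are short, with effective lengths of 622 and 246 bases, and held 124 and 22 fragments, against 2185 in Hcn3-201. By fragments Hcn3-201 took 93.4% of the gene. Its FPKM of 4.00 stood beside 3.99 for Hcn4-201, so nearly all of the posterior gap between the genes lay in the noncoding Hcn3 transcripts. Retained-intron transcripts made up 32.1% of Hcn3 by FPKM, beside a median of 9.24% over the 7630 compared genes that have such a transcript, of which 13.4% stood higher.

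Pex5l was divided over many transcripts. Of its 12 annotated transcripts 6 each took at least 5% of the gene's FPKM, 5 took less and 1, Pex5l-201, was at 0. Pex5l-205 led with an FPKM of 24.3 (27.2%), followed by Pex5l-206 with 21.7 (24.4%) and the retained-intron transcript Pex5l-202 with 12.5 (14.0%). Then came Pex5l-204 with 10.04 (11.3%), Pex5l-209 with 7.82 (8.77%) and Pex5l-211 with 5.96 (6.68%). The 5 minor transcripts ranged between 0.355% and 3.74%. Over the 2189 compared genes with at least 10 annotated transcripts the median leading transcript took 42.5%, and 15.6% of them had a leading transcript with a smaller share than that of Pex5l.

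The Pex5l transcripts differ at their 5′ end, where splicing is known in rodent brain to affect whether TRIP8b raises or lowers the number of HCN channels at the cell surface. The next 4 segments carry those differences. They are the coding bases of a distal and a proximal first coding exon and 2 exons that are included or skipped, written 5′ to 3′ on the - strand of chromosome 3 (GRCm38), with start codons in capitals. The proximal one holds 2 annotated start codons, and other ATG triplets are left in lower case. Pex5l-204 starts at the second, 18 bases before the exon's end. It holds only the last part of this exon, without the first start codon.
Distal first coding exon, 21 coding bases, chr3:33142849-33142869: ATGtaccagggacacatgcag
Proximal first coding exon, 93 coding bases, chr3:33081976-33082068: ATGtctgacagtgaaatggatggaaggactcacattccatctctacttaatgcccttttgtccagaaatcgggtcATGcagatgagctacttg
Exon of 72 bases, chr3:33080465-33080536: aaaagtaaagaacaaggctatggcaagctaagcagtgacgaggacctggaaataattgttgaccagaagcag
Exon of 105 bases, chr3:33024696-33024800: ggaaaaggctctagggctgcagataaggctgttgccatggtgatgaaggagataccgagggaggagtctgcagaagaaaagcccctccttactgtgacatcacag
All 4 lengths are whole multiples of 3, so inclusion keeps the frame.

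Among the 9 protein-coding transcripts of Pex5l, those from the proximal start took 69.5% of their FPKM over 7 transcripts, and the distal start took 30.1%, all in Pex5l-206. Pex5l-203, which starts further inside the gene, took 0.439%. Pex5l-206 joins the distal first exon straight to an exon of 112 bases and skips the exons of 72 and 105 bases, which gives the shortest coding length, 1701 bases, but for Pex5l-203. The exon of 72 bases lies in the same 7 protein-coding transcripts as the proximal start, so its share is not a separate observation. The exon of 105 bases was present in 20.5% of the protein-coding FPKM over transcripts that have the exon of 112 bases, and in 32.3% when the retained-intron transcript Pex5l-202 is counted (35.3% by fragments). Transcripts with a coding length of 1845 bases took 35.1%, those of 1950 bases 20.5% and Pex5l-204, of 1773 bases, 13.9%. Pex5l-204 also holds 3 extra bases at a splice site of a downstream exon.
The retained-intron transcript Pex5l-202 joins the distal first exon to both alternative exons. Of all Pex5l FPKM, transcripts with the distal first exon then took 43.4% over 4 transcripts. The transcript set has 0 transcripts with the distal first exon and the exon of 72 bases but without that of 105 bases. It also lacks any with the distal first exon and the exon of 105 bases but without that of 72 bases. Molecules of either form could only be assigned elsewhere. The shares of the distal start and of the exon of 105 bases therefore depend on the annotated set. At the 3′ end the last exon has the same start but different annotated ends. Its form of 1466 bases took 55.6% and that of 920 bases 44.0% of the protein-coding FPKM. The form of 920 bases lies only in Pex5l-204 and Pex5l-206, so its share is not a separate observation.
These shares were computed from the authors' transcript estimates of 1 library. No estimation error came with those estimates, so the uncertainty of dividing fragments among overlapping transcripts is not known. The anterior library, given per gene, allows no such division.

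**Figure D4:**
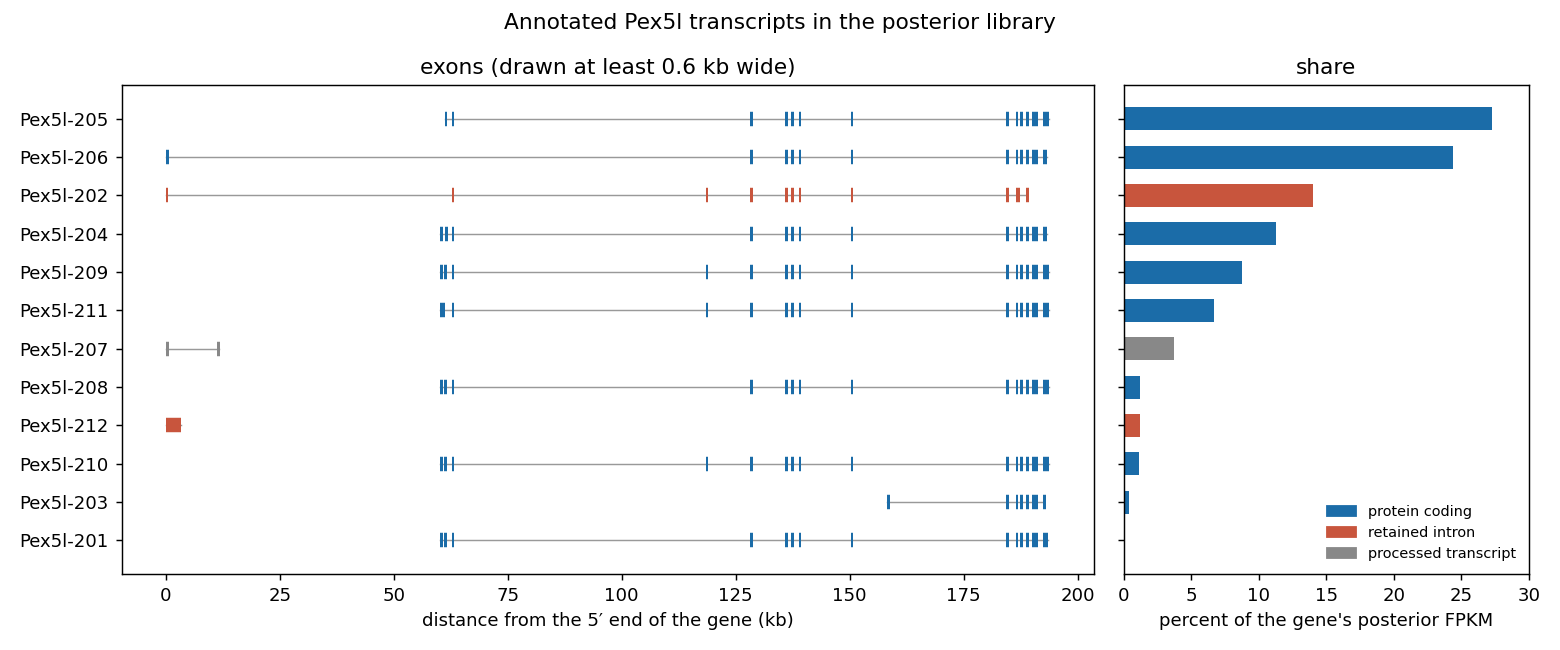
Exons of the 12 annotated Pex5l transcripts, as distance in kb from the 5′ end of the gene, beside the percent of the gene's posterior FPKM that each took, in blue for protein-coding, red for retained-intron and grey for other transcripts. Pex5l-205, from the proximal start, took 27.2% and Pex5l-206, from the distal start, 24.4%.

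Counts over gene lists are set beside the shares of all compared genes, which were 14.5% posterior-high and 7.11% anterior-high by FPKM, and 8.19% and 1.84% by fragment share. A list of genes known to bind or regulate HCN channels, with Pex5 beside them as the relative of Pex5l, held 12 measured genes. Of these 12, 2 were posterior-high on both scales, and 1 was anterior-high by FPKM and 0 by fragment share. By FPKM the counts thus lay near those shares. The median was -0.052 by FPKM and -0.034 by fragment share. Kcne2, a small auxiliary subunit of potassium and HCN channels, had an FPKM of 3.16 (653 fragments) in posterior and 0.0620 (4 fragments) in anterior tissue, a fragment share ratio of 51.5 (20.03 to 190). Choroid plexus, which is known to express Kcne2, was also far higher by its markers: Ttr, Clic6, Kl, Folr1 and Kcnj13 summed to 707 FPM in posterior and 3.32 FPM in anterior tissue (FPKM 660 and 0.935), and Ttr alone held 633 of the posterior FPKM. All 5 were posterior-high on both scales, and their part in the Kcne2 value was not tested. Mrvi1, which encodes an endoplasmic reticulum protein that regulates HCN4, had an FPKM of 3.32 in posterior and 0.570 in anterior tissue, a share ratio of 4.03 (3.40 to 4.82), beside the 4.07 of Hcn4. Its relative Lrmp stayed under an FPKM of 1 in both, at 0.773 and 0.296.
Kctd3, a partner of HCN3, had 29.6 in posterior and 13.4 in anterior tissue, a share ratio of 0.954 (0.920 to 0.989). The scaffold gene Grasp had 15.2 and 25.5, the lowest difference of the list, at -1.36 by FPKM and -0.62 by fragment share. The peroxisomal receptor gene Pex5, the relative of Pex5l, had 18.1 and 17.1, a share ratio of 0.827 (0.789 to 0.867).

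Adenylyl cyclases make the cyclic AMP that HCN channels sense. Of 9 measured genes 0 were posterior-high on either scale, which at 14.5% and 8.19% of all genes says little about so short a list. Adcy2 was anterior-high by FPKM (28.7 in posterior and 60.8 in anterior tissue), and none was by fragment share, where Adcy2 differed by -0.84. The median was -0.30 by FPKM and 0.31 by fragment share, so the direction of the list flipped with the scale. Adcy1 was the most abundant in both, with 92.8 in posterior and 118 in anterior tissue.
T-type calcium channels, which act together with Ih in thalamic rhythms, and leak potassium channels of the Kcnk family gave 7 measured genes. Of them 0 were posterior-high on either scale. Kcnk9 was anterior-high by FPKM (-1.14), and none was by fragment share, again near the shares of all genes. Cacna1h had the highest difference, with 17.4 in posterior and 6.20 in anterior tissue (share ratio 1.53, 1.47 to 1.61), and Cacna1g had 37.5 and 15.8 (1.17, 1.14 to 1.21). Of the 6 cyclic nucleotide-gated channel genes, relatives of the HCN family, Cnga4 reached an FPKM of 1, with 0.556 in posterior and 1.07 in anterior tissue, a share ratio of 0.525 (0.409 to 0.676). Of the 5 below that level Cngb1 went the other way, with 361 posterior and 10 anterior fragments, a share ratio of 11.4 (6.12 to 23.96). Cnga3, with 29 posterior and 0 anterior fragments, and Cngb3, with 14 and 1 (4.42, 0.672 to 187), also stood on the posterior side. Cnga2 held 27 and 9 (0.947, 0.432 to 2.29). Cnga1 was at 0 in both, and a value of 0 allows a level of up to 3 fragments.

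Markers of thalamus, a region known for HCN4 and HCN2, were mostly posterior-high, as were those of hippocampus and choroid plexus. Hcn4 was posterior-high by fragment share only, while Hcn2 lay within 2-fold on both scales. Of 10 thalamus genes 9 by FPKM and 10 by fragment share were posterior-high, with medians of 2.43 and 2.85. They summed to 1038 FPM in posterior and 180.5 FPM in anterior tissue, and to an FPKM of 292 and 25.3, a wider gap. The protein kinase C gene Prkcd had an FPKM of 99.9 in posterior and 1.53 in anterior tissue, and Slc17a6, a vesicular glutamate transporter of thalamus, 34.2 and 3.31, a share ratio of 9.21 (8.51 to 9.97). The Hcn4 ratio of 4.07 lay between those of Rora (2.26) and Lef1 (4.27), the lowest pair of the list. Of 5 hippocampus genes 4 were posterior-high on both scales. Of 10 isocortical excitatory neuron genes 6 were anterior-high by FPKM and 4 by fragment share, and 0 were posterior-high. Within 2-fold, Foxp2 stood on the posterior side on both scales (0.69 and 0.16), Rorb by fragment share (0.56) and Cux2 by FPKM (0.21).
All 5 genes of the fast-spiking interneuron list (Pvalb, Kcnc1, Kcnc2, Gad1 and Gad2), not all particular to those cells, lay within 2-fold. Pvalb had 63.3 in posterior and 46.3 in anterior tissue. Of 6 pan-neuronal genes 0 were posterior-high, and 1 was anterior-high by FPKM and 0 by fragment share, with medians of -0.026 and -0.46. Of 6 oligodendrocyte genes 4 by FPKM and 1 by fragment share were posterior-high (medians 1.53 and 0.83), and of 5 astrocyte genes 2 and 1 (0.17 and 0.45). The counts of 1 by fragment share are not far from the 8.19% of all genes. None of the markers in these lists was at 0 in either library, and their part in the Hcn4 value was not tested.

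**Figure D5:**
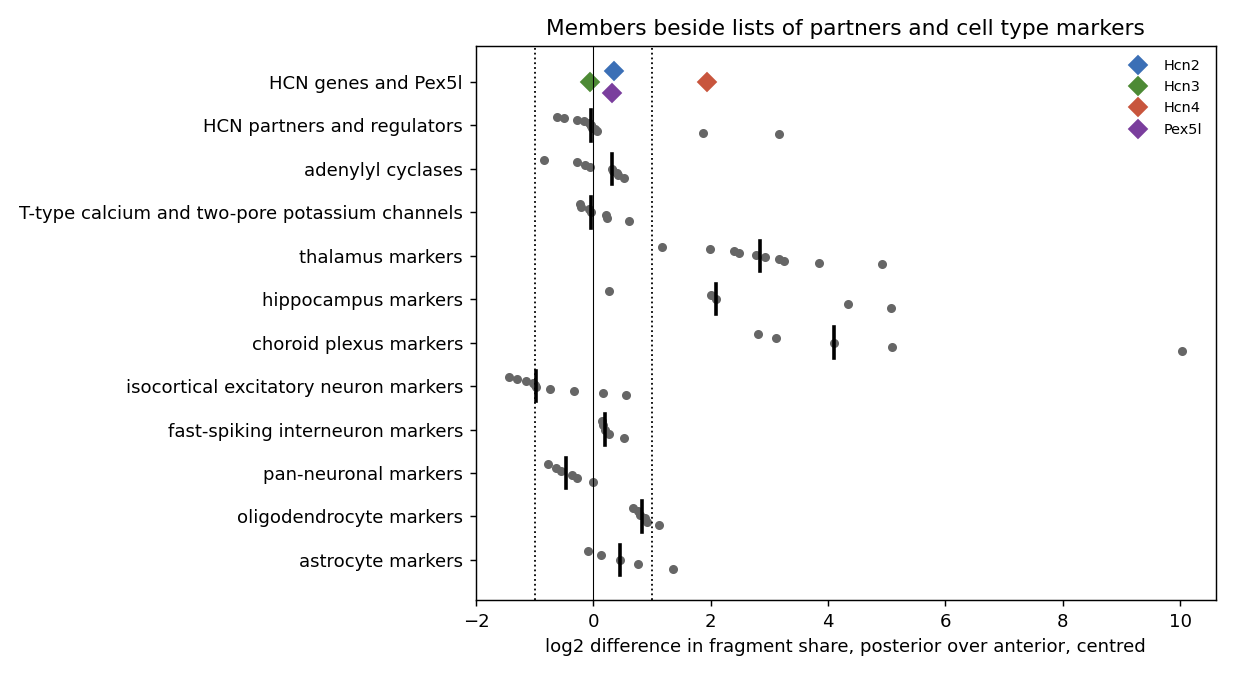
Log2 difference in fragment share, posterior over anterior, of the 4 members (diamonds) and of the measured genes of 11 lists (dots, with the list median as a black bar), with dotted lines at 2-fold. Hcn4, at 1.94, lies within the range of the thalamus markers (1.17 to 4.92). It also lies within those of the hippocampus markers (0.27 to 5.07) and of the HCN partners and regulators (-0.62 to 3.17). Hcn2, Hcn3 and Pex5l lie between -0.055 and 0.34.

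The genes with the most similar levels were those nearest in log2(FPKM + 0.5) over the 2 libraries, a likeness that rests on 2 values per gene. For Hcn2 they were Oga, Slc48a1 and Atf4, at distances between 0.021 and 0.053. For Hcn3 they were Ptprr, Wrap53 and Cep126 (0.023 to 0.025). For Hcn4 they were Zfhx4, Zfp524 and the tyrosine hydroxylase gene Th (0.020 to 0.033), the last with an FPKM of 4.09 in posterior and 1.19 in anterior tissue. For Pex5l they were Tmem256, Rab14 and Bcas1 (0.028 to 0.094).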

How the data were processed

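Polyadenylated RNA of 2 brain samples was sequenced as paired reads, per the labels' protocols. The authors deposited anterior FPKM per gene, with gene lengths. Those reads were aligned with HISAT2 2.0.5 to mm10, per the submitters' processing notes. Strandedness and the counting program were not given in the sources used here. Posterior estimated counts and TPM per transcript were deposited by the authors from Salmon, per the labels' protocols. Posterior FPKM was computed from estimated counts over effective length and summed per gene (0.609 of TPM), because the plan had assumed deposited FPKM in both. Anterior fragments were recovered as whole multiples in FPKM times length (100% of 54532 genes within 0.001). Totals were 147138183 posterior and 43558839 anterior fragments. Genes were joined by identifier. Python 3.11.15, pandas 2.3.3 and scipy 1.17.1 were used, and the functions were tested on simulated data. Sequences and exons came from GENCODE M21 (GRCm38), to which 19 of 19 member transcripts matched in version and length. The members, lists and rules were chosen with earlier results of these data known. All members, transcripts of at least 5%, and the 3 nearest genes per member are named. Extremes of the lists and genes set beside a member are named only in part. The highest adenylyl cyclase and the extremes of several marker lists are not named. Prkcd, Slc17a6, Pvalb, Snap25, Foxp2, Rorb, Cux2, Lrmp, Pex5, Kctd3, Adcy1, Cacna1g, Cngb1, Cngb3, Cnga1, Cnga2 and Cnga3 were added after their values were seen. No test between positions was possible with 1 library each.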

Additional observations from a re-analysis of the deposited data

How the results depend on the processing

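The centred log2 differences, posterior over anterior, moved with the scale, the filter and the centring. By fragment share Hcn2, Hcn3, Hcn4 and Pex5l stood at 0.34, -0.055, 1.94 and 0.32, with 1092 genes posterior-high and 246 anterior-high, so 81.6% of such genes lay on the posterior side in place of 67.1% (1933 and 949 genes). With posterior fragments over the deposited gene length, an alternative added after the data were seen, they stood at 0.31, -0.050, 1.66 and 0.28 (917 and 207 genes, 81.6%). Without centring they were 0.14, 0.26, 1.41 and 1.72 (4486 and 170 genes, 96.3%). Without an FPKM filter they were -0.25, -0.13, 1.03 and 1.33, with 558 genes anterior-high and 83.2% on the posterior side. Over annotated transcript length Hcn2, Hcn4 and Pex5l were -0.36, 0.99 and 1.19. Without noncoding posterior transcripts Hcn2, Hcn3 and Hcn4 were -0.19, -0.63 and 1.08. A pseudocount of 0.1 gave -0.54 for Hcn2 and 0.99 for Hcn4, a pseudocount of 1 gave -0.44 for Hcn2, and an FPKM of at least 5 gave 1.05 for Pex5l. Hcn4 was above 0 under every alternative listed here and past 2-fold under 5 of them, and Pex5l was above 0 under every one. Hcn2 changed sign by fragment share, with the common gene length and without centring, and Hcn3 without centring; apart from the construction of the length and centring alternatives, the cause was not tested.

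In the posterior balance Hcn2, Hcn3 and Hcn4 took 82.1%, 7.29% and 10.7% by fragments, and 88.0%, 6.01% and 5.97% over the common gene length. Hcn2 and Hcn3 took 88.5% and 5.75% without noncoding transcripts, and 86.4% and 7.73% over annotated length. In the anterior balance the fragments gave 86.4%, 10.1% and 3.51%. Hcn3-201 took 93.4% of its gene by fragments, 74.1% over annotated length and 100% of the protein-coding part, and Pex5l-205 took 29.5%, 27.8% and 33.6%. No paired analysis was possible because each position had 1 library. With 265 anterior fragments Hcn4 was the least precise member.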
